A study of Mus musculus with 12 samples.

Results

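The genes described are the protein-coding mouse genes whose GENCODE symbol starts with Tbc1d or Dennd. The rule used the symbol and the gene type only, and no measured value. It found 44 of the 53715 genes listed, 30 of them Tbc1d genes and 14 Dennd genes. Of these, 43 had more than 10 counts in at least 1 library and were tested, and Tbc1d21 was not.

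Rab GTPases are molecular switches on the membranes of vesicles, endosomes and the Golgi. A Rab is switched on by a guanine nucleotide exchange factor, which lets it bind GTP and recruit its effectors, and is switched off by a GTPase-activating protein, which speeds up hydrolysis of the GTP. Proteins with a DENN domain are the largest family of Rab exchange factors, and proteins with a TBC domain are the main family of Rab GTPase-activating proteins. In hepatocytes, Rab-controlled traffic delivers proteins to the apical surface that lines the bile canaliculus (BC) and to the basal surface that faces the blood. The study examined how hepatocytes form BC lumina, and Rab35 is its central gene, so the exchange factors and GTPase-activating proteins directed at Rab35 are described first.

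RNA was sequenced from 12 libraries, 4 biological replicates in each of 3 groups, all from mice of the strain C57BL/6JOlaHsd. Hepatoblasts were the Dlk1+ cells of embryonic livers at E14.5, taken by magnetic sorting and lysed right after isolation. Each isolation pooled several embryonic livers. Diff. hepatocytes were such E14.5 hepatoblasts after 4 days on fibronectin in differentiation medium. Mature hepatocytes came from male adults of 8 to 12 weeks by collagenase perfusion and were not cultured. Diff. hepatocytes and hepatoblasts shared the age at isolation and the sorting, and differed by the 4 days of culture. Mature hepatocytes differed from hepatoblasts in age and isolation method, and from Diff. hepatocytes in culture as well. The mature cells were all male, and the paper does not state the sex of the embryos. In each comparison with mature hepatocytes, these factors changed together and cannot be told apart.

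Depth was 19581551 to 25216977 reads on genes in each library. Levels are given as CPM, the counts of a gene set against the library size after scaling by TMM, a factor that sets the bulk of the genes level between libraries. The TMM factors ran from 1.23 to 1.44 for hepatoblasts, from 1.03 to 1.08 for Diff. hepatocytes and from 0.677 to 0.778 for mature hepatocytes. The summed level of the hepatoblast markers Dlk1, Afp and Gpc3 was 30950 to 52140 CPM in the hepatoblast libraries, 16420 to 20860 CPM in the Diff. libraries and 36.2 to 66.8 CPM in the mature libraries. That of the adult hepatocyte markers was 28.7 to 45.1, 6302 to 7522 and 26960 to 32400 CPM. Of these, Cps1 averaged 5920 CPM in the Diff. and 6066 CPM in the mature libraries. Cyp2e1 averaged 3.24 and 6504 CPM there, and Mup3 2.35 and 9667 CPM. Cyp3a11, Tat and G6pc averaged 355.5, 724.7 and 157 CPM in the Diff. libraries, between their hepatoblast and mature means. Hepatoblasts replicate 1 stood apart from the other hepatoblast libraries, with 2512 CPM of 10 erythroid markers against at most 500.9 CPM, 269 CPM of 9 macrophage markers against at most 83.7 CPM, and 229 CPM of 10 leukocyte markers against at most 49.3 CPM. No marker of these 3 lists was at 0 in all hepatoblast libraries. The 9 mesenchymal markers summed to 523 to 997 CPM in the hepatoblast, 1000 to 2377 CPM in the Diff. and 52.6 to 73.8 CPM in the mature libraries, and the 12 cell cycle genes to 1561 to 2636, 107 to 191 and 53.7 to 64.2 CPM. The 6 bile duct markers were highest in the Diff. libraries (26.7 to 35.7, 92.7 to 232.5 and 37.3 to 65.9 CPM), and the 8 endothelial markers were lowest there (32.7 to 127.4, 4.797 to 10.07 and 122 to 220.3 CPM). The part of these markers in the results was not tested, and results of members that rest on hepatoblasts replicate 1 are given with and without it.

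In Diff. hepatocytes, 5 members rose and 3 fell against hepatoblasts, where a call in edgeR's quasi-likelihood test needed both an adjusted p below 0.01 and a log2 fold change above 1 or below -1. This is 18.6% of the 43 tested members, and 28.9% of all 17779 tested genes were called in this comparison, 14.9% higher and 14.0% lower. Tbc1d30, Tbc1d8, Tbc1d2, Tbc1d16 and Dennd1c were higher, by 18.5-, 8.60-, 8.57-, 2.64- and 2.49-fold. Tbc1d10c, Tbc1d1 and Dennd4b were lower, by 3.12-, 2.5- and 2.02-fold. Without hepatoblasts replicate 1 the counts were 6 higher and 1 lower, and Tbc1d1 was the 1 that still fell. Of the 14497 protein-coding genes tested, 29.5% were called here, 45.8% in mature hepatocytes against hepatoblasts and 36.1% between Diff. and mature hepatocytes. In bulk samples, fewer cells of a type and less RNA per cell cannot be told apart.

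In mature hepatocytes, 10 members rose and 5 fell against hepatoblasts. These 15 make up 34.9% of the tested members, and 44.8% of all tested genes were called, 20.1% higher and 24.7% lower. Tbc1d30 was 14.6-fold higher, Tbc1d2 3.42-fold, Tbc1d8 3.34-fold and Tbc1d8b 2.87-fold, and Tbc1d10a, Tbc1d32, Tbc1d4, Tbc1d16, Dennd1c and Tbc1d17 between 2.13- and 2.57-fold. Tbc1d9 was 8.86-fold lower, Tbc1d1 6.03-fold, Dennd2c 5.16-fold, Dennd2a 4.08-fold and Tbc1d19 2.69-fold. Without hepatoblasts replicate 1 the counts were again 10 and 5. With library totals in place of TMM, 1 member was higher and 14 were lower (11.3% and 44.5% of all tested genes), a split taken up with the plot of the fold changes under both scalings.

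Between the hepatocytes made in culture and those of the adult liver, 5 members were higher and 6 lower in Diff. hepatocytes. This is 25.6% of the tested members against 35.8% of all tested genes, 20.2% higher and 15.6% lower. Tbc1d9 was 11.3-fold higher, Dennd2a 2.81-fold, Tbc1d8 2.58-fold, Tbc1d1 2.41-fold and Tbc1d19 2.29-fold. Tbc1d4 was 5.69-fold lower, Tbc1d10a 2.62-fold, and Tbc1d13, Dennd5b, Dennd4b and Tbc1d8b between 2.08- and 2.15-fold lower. With library totals, 7 were higher and Tbc1d4 was the 1 lower (30.9% and 9.99% of all tested genes). The 3 comparisons share their libraries, so that each is given on its own values.

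**Figure D1:**
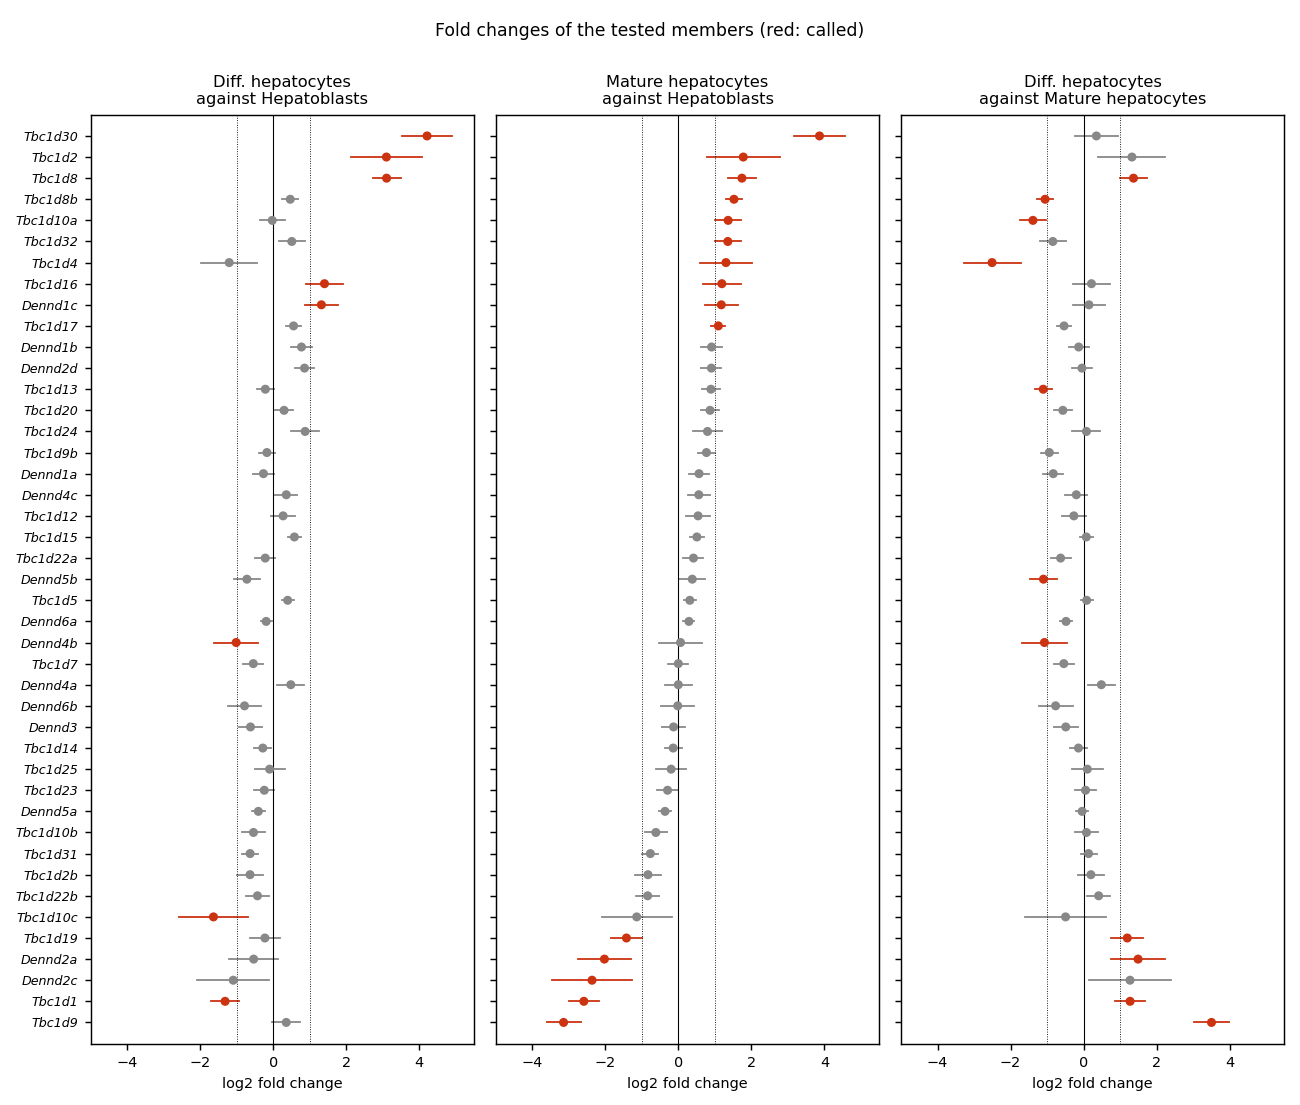
Log2 fold change of the 43 tested members (1 row each) in the 3 comparisons, with lines for the 95% interval of the fit over 12 libraries and red marking called members. Dotted lines mark a log2 fold change of 1 in each direction, and the panel of mature hepatocytes against hepatoblasts, which sets the order of the rows, runs from -3.15 for Tbc1d9 to 3.86 for Tbc1d30.

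In all, 19 members were called in at least 1 comparison and 24 in none, and 57.5% of all tested genes were called in at least 1. The median absolute log2 fold change of the members was 0.54 in Diff. hepatocytes against hepatoblasts, 0.84 in mature hepatocytes against hepatoblasts and 0.50 in Diff. against mature hepatocytes, and over all tested genes it was 0.68, 1.07 and 0.86. Many members differed between groups without reaching the fold threshold. The 4 libraries of one group all lay above or below the 4 of the other for 30, 32 and 24 members, for which the exact two-sided permutation test gave p = 0.0286, the smallest that 70 assignments allow. Of all tested genes, 57.5%, 66.0% and 61.6% had such groups.

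**Figure D2:**
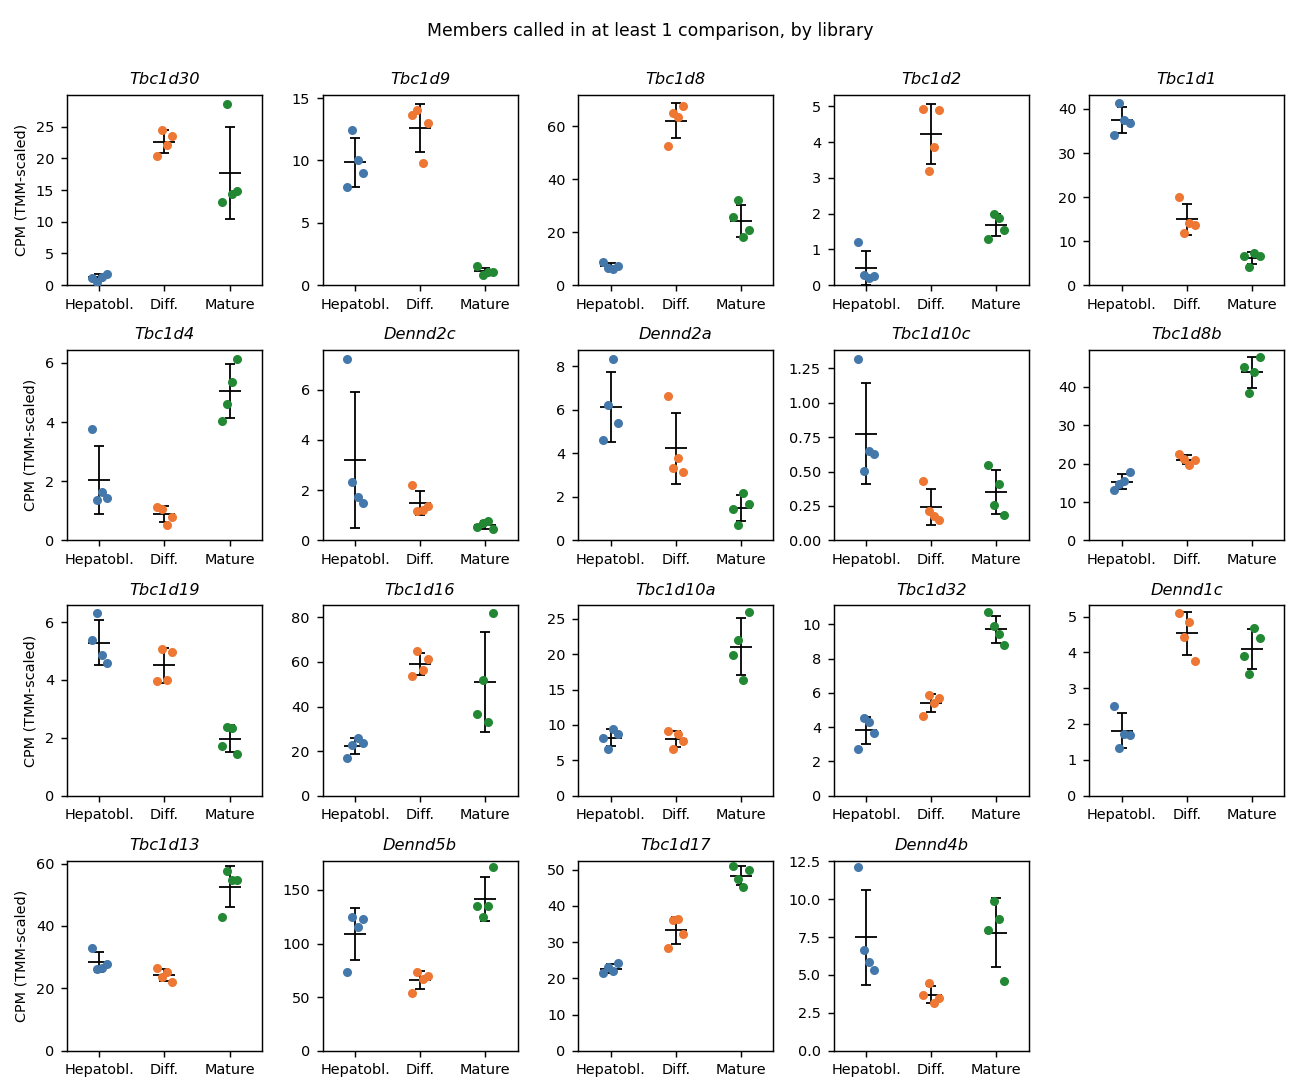
Level in CPM (vertical axis, each starting at 0) of the 19 members called in at least 1 comparison, ordered by their largest called fold change, in the 4 libraries of hepatoblasts, Diff. hepatocytes and mature hepatocytes. Points are libraries, the wide tick is the mean and the bars are 1 SD. Tbc1d30, Tbc1d8 and Tbc1d2 are lowest in hepatoblasts, and Tbc1d9 is lowest in mature hepatocytes.

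Set side by side per length, as CPM per kilobase of exon, the mean levels of the members were headed by Tbc1d15, a GTPase-activating protein for Rab7, in every group. It stood at 11.6 ± 0.49 CPM per kilobase (SD, n = 4) in the hepatoblast, 17.3 ± 1.85 in the Diff. and 16.5 ± 0.99 in the mature libraries. In hepatoblasts it was followed by Tbc1d2b at 10.9 ± 1.54 and Tbc1d9b at 9.12 ± 0.496 CPM per kilobase. The first and the second of this order did not differ beyond their spread. In Diff. hepatocytes Tbc1d8 was second at 11.8 ± 1.24 and Tbc1d20 followed at 9.77 ± 0.814, and in mature hepatocytes Tbc1d9b was second at 15.5 ± 2.6 and was followed by Tbc1d20. The first and the second in mature hepatocytes did not differ beyond their spread either. Tbc1d8 held place 31 of the 44 in hepatoblasts and place 2 in Diff. hepatocytes. Length differs between transcripts of a gene, and the union of all exons in GENCODE M21 was used.

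Among the 8 members directed at Rab35, the exchange factors Dennd1a, Dennd1b and Dennd1c (the connecdenns) and the GTPase-activating proteins Tbc1d10a, Tbc1d10b, Tbc1d10c, Tbc1d13 and Tbc1d24, 1 rose and 1 fell in Diff. hepatocytes against hepatoblasts, 2 rose in mature hepatocytes against hepatoblasts, and 2 were lower in Diff. than in mature hepatocytes. This was 25% of the 8 in each comparison, where 28.9%, 44.8% and 35.8% of all tested genes were called. Rab35 itself averaged 32.3 ± 6.82 CPM in the hepatoblast, 35.3 ± 2.60 in the Diff. and 23.6 ± 1.52 in the mature libraries (SD, n = 4). With TMM, Rab35 was not called in any comparison. Its log2 fold change was 0.13 (adjusted p = 0.406) in Diff. hepatocytes against hepatoblasts and -0.46 (adjusted p = 0.00552) in mature hepatocytes against hepatoblasts. In Diff. against mature hepatocytes it was 0.58 (adjusted p = 0.00127). Library totals were not examined for Rab35, and they moved the median of all tested genes from -0.15 to -1.0 in mature hepatocytes against hepatoblasts.

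Dennd1c (chr17:57065905-57078514, minus strand, GRCm38) was the exchange factor of this set that was called. It stood at 2.52, 1.34, 1.72 and 1.69 CPM in the hepatoblast libraries, 5.10, 4.43, 4.84 and 3.75 CPM in the Diff. libraries, and 3.91, 3.40, 4.67 and 4.41 CPM in the mature libraries. All Diff. and all mature libraries lay above all hepatoblast libraries, and the Diff. and mature libraries overlapped. For Dennd1c, the log2 fold change was 1.32 ± 0.21 (SE, adjusted p = 0.000123) in Diff. hepatocytes and 1.17 ± 0.21 (adjusted p = 0.000226) in mature hepatocytes. With library totals neither was called, at 0.98 and 0.31.

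Dennd1b (chr1:138963435-139178960, plus strand) stood at 15.3, 17.6, 14.1 and 16.9 CPM in the hepatoblast libraries, 27.4, 27.9, 25.6 and 28.2 CPM in the Diff. libraries, and 37.9, 23.2, 29.4 and 29.6 CPM in the mature libraries. Its hepatoblast libraries were lowest as well, but the fold changes ended short of the threshold. They were 0.77 ± 0.13 (adjusted p = 0.000176) in Diff. hepatocytes and 0.91 ± 0.13 (adjusted p = 2.71e-05) in mature hepatocytes, the latter 1.01 and called without mature hepatocytes replicate 2. With library totals they were 0.45 and 0.05, and neither was called. Dennd1a (chr2:37798991-38287390, minus strand) stood at 22.8, 18.2, 19.4 and 21.9 CPM in the hepatoblast libraries, 14.7, 17.2, 17.6 and 18.9 CPM in the Diff. libraries, and 32.02, 28.8, 24.4 and 36.4 CPM in the mature libraries. Here the mature libraries were highest and did not overlap either of the other groups. The log2 fold change in Diff. against mature hepatocytes was -0.83 (adjusted p = 8e-05), and against hepatoblasts Dennd1a was at 0.56 (adjusted p = 0.00139) in mature hepatocytes, a sign that turned (-0.30) with library totals.

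Of the GTPase-activating proteins, Tbc1d10a and Tbc1d13 were highest in mature hepatocytes, while their Diff. and hepatoblast libraries overlapped. Tbc1d10a (chr11:4186789-4215505, plus strand), a regulator of Rab35 and Rab27a also known as EPI64, stood at 8.09, 6.63, 9.36 and 8.78 CPM in the hepatoblast libraries, 9.12, 6.63, 8.71 and 7.74 CPM in the Diff. libraries, and 19.9, 22.1, 16.4 and 25.9 CPM in the mature libraries. The mature libraries lay above the other 8. Tbc1d10a had a log2 fold change of 1.36 ± 0.16 (SE, adjusted p = 4.46e-06) in mature hepatocytes against hepatoblasts, -1.39 ± 0.16 (adjusted p = 5.8e-06) in Diff. against mature hepatocytes, and -0.03 (adjusted p = 0.889) in Diff. hepatocytes against hepatoblasts. Tbc1d13 (chr2:30133746-30152013, plus strand), which also acts in the traffic of the glucose transporter GLUT4, stood at 32.99, 26.1, 26.6 and 27.8 CPM in the hepatoblast libraries, 26.6, 23.6, 25.3 and 22.2 CPM in the Diff. libraries, and 42.99, 57.8, 54.6 and 54.9 CPM in the mature libraries. Its mature libraries were again the highest. For Tbc1d13, the log2 fold change was -1.11 ± 0.11 (SE, adjusted p = 1.3e-06) in Diff. against mature hepatocytes, and in mature hepatocytes against hepatoblasts it was 0.89 ± 0.11 (adjusted p = 6.57e-06), short of the fold threshold. With library totals neither gene passed in any comparison.

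The promoter of Tbc1d13 is shown as that of a Rab35 regulator called between Diff. and mature hepatocytes. It covers the 250 bases before the start of the gene in RefSeq (GRCm38.p6, chr2:30133496-30133745, plus strand). Capitals mark the GC boxes (GGGCGG) and the E-box (CACGTG) that a search of both strands found.
Tbc1d13: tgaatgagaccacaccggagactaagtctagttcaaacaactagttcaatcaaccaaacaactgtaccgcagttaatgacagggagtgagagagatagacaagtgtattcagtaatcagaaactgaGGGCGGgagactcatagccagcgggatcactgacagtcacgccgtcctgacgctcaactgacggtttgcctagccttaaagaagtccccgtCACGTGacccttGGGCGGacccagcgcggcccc

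Tbc1d24 (chr17:24175431-24205562, minus strand), whose loss causes epilepsy in humans, stood at 32.4, 22.2, 21.8 and 23.1 CPM in the hepatoblast libraries, 36.8, 53.4, 42.2 and 49.8 CPM in the Diff. libraries, and 29.8, 50.3, 45.9 and 46.7 CPM in the mature libraries. The Diff. libraries lay above the hepatoblast libraries, and the mature libraries overlapped both. The log2 fold change in Diff. hepatocytes against hepatoblasts was 0.87 (adjusted p = 0.000886), and 1.03 and called without hepatoblasts replicate 1. Tbc1d10b (chr7:127197459-127208468, minus strand) stood at 35.3, 25.1, 24 and 24.5 CPM in the hepatoblast libraries, 22.6, 16.1, 18.6 and 17.5 CPM in the Diff. libraries, and 16.8, 17.1, 20.02 and 16.9 CPM in the mature libraries. The hepatoblast libraries were highest, and the log2 fold changes were -0.54 (adjusted p = 0.00473) in Diff. and -0.62 (adjusted p = 0.00147) in mature hepatocytes, neither past the fold threshold. With library totals Tbc1d10b was at -0.88 and not called in Diff. hepatocytes, and at -1.48 and called lower in mature hepatocytes.

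Tbc1d10c (chr19:4183411-4191284, minus strand), known from lymphocytes, was near the limit of detection, at 1.32, 0.507, 0.648 and 0.630 CPM in the hepatoblast libraries, 0.432, 0.215, 0.178 and 0.148 CPM in the Diff. libraries, and 0.548, 0.257, 0.408 and 0.186 CPM in the mature libraries. These values rest on 17 to 41 counts in hepatoblasts, 3 to 10 in Diff. and 3 to 8 in mature hepatocytes. Its log2 fold change in Diff. hepatocytes was -1.64 (adjusted p = 0.00607), and -1.25 with adjusted p = 0.019 without hepatoblasts replicate 1, which was the highest library for Tbc1d10c and for the leukocyte markers. The call was also lost without Diff. hepatocytes replicate 2, 3 or 4, at log2 fold changes of -1.60 to -1.47. The part of leukocyte RNA was not tested. Of its exon length, 35.5% overlaps AC109138.8 on the same strand, and 27.7% of its 75-base sequences occur in other genes, so that its counts are uncertain.

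**Figure D3:**
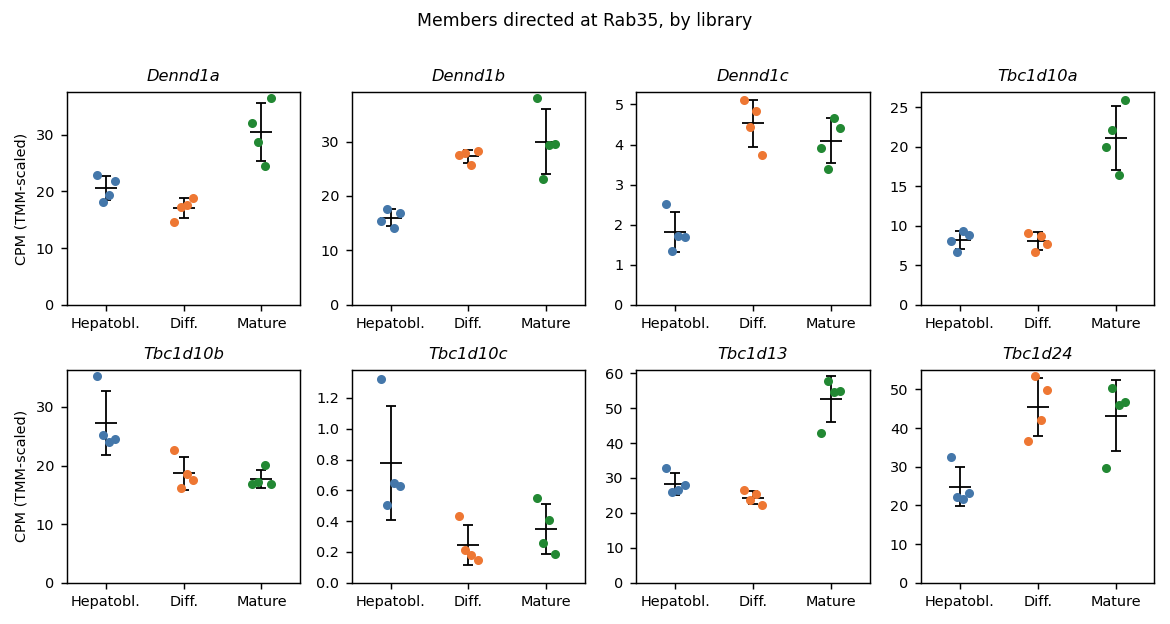
Level in CPM (vertical axis, each starting at 0) of the 8 members directed at Rab35 in the 12 libraries, with the mean (wide tick) and 1 SD (bars) of the 4 libraries of each group. Tbc1d10a and Tbc1d13 are highest in the mature libraries, Dennd1b and Dennd1c are lowest in the hepatoblast libraries, and Tbc1d10c lies at or under 1.32 CPM in every library.

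The 5 members that act on Rab10 and on GLUT4 traffic were the GTPase-activating proteins Tbc1d1 and Tbc1d4 (AS160), which insulin signalling turns off in muscle and fat, and the exchange factors Dennd4a, Dennd4b and Dennd4c. In Diff. hepatocytes 2 fell, and 1 rose and 1 fell in mature hepatocytes, each against hepatoblasts. This was 40% of the 5 in each comparison, where 28.9% and 44.8% of all tested genes were called. The related Tbc1d1 and Tbc1d4 took opposite directions between hepatoblasts and mature hepatocytes. Tbc1d1 (chr5:64156305-64351486, plus strand) stood at 34.1, 41.3, 37.4 and 36.8 CPM in the hepatoblast libraries, 20.1, 11.8, 14.2 and 13.7 CPM in the Diff. libraries, and 6.72, 4.11, 7.24 and 6.71 CPM in the mature libraries. The 3 groups did not overlap, with hepatoblasts highest and mature hepatocytes lowest. Tbc1d1 had a log2 fold change of -1.32 ± 0.18 (SE, adjusted p = 2.48e-05) in Diff. hepatocytes and -2.59 ± 0.19 (adjusted p = 3.66e-08) in mature hepatocytes, and 1.27 ± 0.19 (adjusted p = 4.67e-05) in Diff. against mature hepatocytes. With library totals Tbc1d1 was at -3.45 in mature hepatocytes against hepatoblasts.

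Tbc1d4 (chr14:101442360-101609191, minus strand) stood at 3.77, 1.37, 1.62 and 1.43 CPM in the hepatoblast libraries, 1.12, 1.08, 0.533 and 0.789 CPM in the Diff. libraries, and 4.05, 4.62, 5.37 and 6.15 CPM in the mature libraries. The Diff. libraries were lowest and the mature libraries highest, with no overlap between groups. For Tbc1d4, the log2 fold change was -2.51 ± 0.36 (SE, adjusted p = 4.06e-05) in Diff. against mature hepatocytes, and it was called in that comparison under library totals as well. In mature hepatocytes against hepatoblasts the value was 1.30 ± 0.33 (adjusted p = 0.00325), and 1.77 without hepatoblasts replicate 1. This call was lost without hepatoblasts replicate 2, 3 or 4 or without mature hepatocytes replicate 4, at log2 fold changes of 1.13 to 1.18, and with library totals (0.41). In Diff. hepatocytes against hepatoblasts Tbc1d4 missed the threshold at -1.21 (adjusted p = 0.0103) and was at -0.72 without hepatoblasts replicate 1. It was called lower without hepatoblasts replicate 2 (-1.37) or 4 (-1.36), without the filter on low counts (-1.23), with library totals (-1.56) and by DESeq2 (-1.21). The endothelial markers had their lowest and highest groups in common with Tbc1d4, and their part was not tested.

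Dennd4b (chr3:90265185-90280669, plus strand) stood at 12.1, 6.66, 5.83 and 5.34 CPM in the hepatoblast libraries, 3.67, 4.48, 3.15 and 3.45 CPM in the Diff. libraries, and 7.95, 9.88, 8.70 and 4.59 CPM in the mature libraries. The Diff. libraries were lowest and lay below both other groups, which overlapped each other. The fold changes were -1.02 ± 0.28 (adjusted p = 0.00713) against hepatoblasts and -1.07 ± 0.29 (adjusted p = 0.00484) against mature hepatocytes. Both calls were close to the threshold. The former was -0.68 without hepatoblasts replicate 1, with adjusted p = 0.0201, and was also lost without hepatoblasts replicate 2 or Diff. hepatocytes replicate 1, 3 or 4, and the latter was lost in 6 of the 8 fits that left out 1 library. Dennd4a and Dennd4c were not called in any comparison with TMM. Dennd4a averaged 61.1 ± 18.9, 85.2 ± 8.47 and 60.9 ± 6.87 CPM and Dennd4c 30.1 ± 0.659, 38.5 ± 2.88 and 44.3 ± 9.93 CPM in hepatoblasts, Diff. and mature hepatocytes (SD, n = 4). Rab10, their substrate, averaged 74.0, 86.9 and 107.7 CPM and was not called either.

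Of the 10 members of the endolysosome and autophagy set, 1 rose in Diff. hepatocytes, and 1 rose and 2 fell in mature hepatocytes against hepatoblasts. These were 10% and 30% of the 10, where 28.9% and 44.8% of all tested genes were called. Tbc1d2 (chr4:46604390-46650209, minus strand), or Armus, acts on Rab7 and binds Rac1 and the autophagy protein LC3. It stood at 1.19, 0.298, 0.194 and 0.265 CPM in the hepatoblast libraries, 4.93, 3.19, 3.87 and 4.88 CPM in the Diff. libraries, and 1.30, 1.99, 1.87 and 1.55 CPM in the mature libraries. Groups did not overlap, and the Diff. libraries were highest. Tbc1d2 had a log2 fold change of 3.10 ± 0.46 (SE, adjusted p = 6.1e-05) in Diff. hepatocytes and 1.78 ± 0.46 (adjusted p = 0.0037) in mature hepatocytes. The hepatoblast values rest on 37, 10, 6 and 8 counts. Without hepatoblasts replicate 1, the highest of them, the fold changes were 4.03 and 2.70, and the call in mature hepatocytes was lost without any 1 of hepatoblasts replicates 2, 3 and 4 or mature hepatocytes replicates 2 and 3, and with library totals (0.89). In Diff. against mature hepatocytes the log2 fold change was 1.32 (adjusted p = 0.0146).

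Dennd2a and Dennd2c, exchange factors for Rab9, which returns receptors from endosomes to the Golgi, were lowest in mature hepatocytes. Dennd2a (chr6:39462378-39557867, minus strand) stood at 4.61, 6.21, 8.36 and 5.40 CPM in the hepatoblast libraries, 6.66, 3.31, 3.78 and 3.15 CPM in the Diff. libraries, and 1.44, 0.706, 2.16 and 1.68 CPM in the mature libraries. The mature libraries lay below the other 8, and hepatoblast and Diff. libraries overlapped. For Dennd2a, the log2 fold change was -2.03 ± 0.34 (SE, adjusted p = 0.00011) in mature hepatocytes against hepatoblasts and 1.49 ± 0.34 (adjusted p = 0.00166) in Diff. against mature hepatocytes. Dennd2c (chr3:103102604-103169769, plus strand) stood at 7.22, 2.33, 1.72 and 1.49 CPM in the hepatoblast libraries, 2.21, 1.16, 1.20 and 1.38 CPM in the Diff. libraries, and 0.548, 0.706, 0.759 and 0.435 CPM in the mature libraries. The first hepatoblast library was far above the other 11. Its log2 fold change in mature hepatocytes was -2.37 (adjusted p = 0.000927), and -1.59 with adjusted p = 0.00058 without that library. The related Dennd2d had the opposite order, with 5.26 ± 0.655 CPM in hepatoblasts, 9.52 ± 0.159 in Diff. and 9.83 ± 1.09 in mature hepatocytes, but was not called. With library totals, its log2 fold change against hepatoblasts was 0.54 in Diff. and 0.06 in mature hepatocytes.

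Tbc1d15 (chr10:115197872-115251467, minus strand), the member with the highest mean level per length, stood at 49.95, 51.9, 49.1 and 46.8 CPM in the hepatoblast libraries, 66.5, 80.3, 67.4 and 80.9 CPM in the Diff. libraries, and 70.2, 66.04, 68.4 and 75.9 CPM in the mature libraries. Its hepatoblast libraries were lowest, and the log2 fold changes of 0.58 (adjusted p = 6.86e-05) in Diff. and 0.50 (adjusted p = 0.000139) in mature hepatocytes were short of the threshold, the latter turning to -0.35 with library totals. Tbc1d2b (chr9:90202027-90270804, minus strand), a paralog of Armus, stood at 77.4, 93.3, 106 and 105 CPM in the hepatoblast libraries, 62.1, 61.04, 56.99 and 65.7 CPM in the Diff. libraries, and 38.4, 48.7, 54.9 and 72.2 CPM in the mature libraries. It was highest in hepatoblasts, at -0.64 (adjusted p = 0.00382) in Diff. and -0.84 (adjusted p = 0.000384) in mature hepatocytes. It was called in the latter without mature hepatocytes replicate 4 (-1.02) and with library totals (-1.68). Tbc1d5, which acts on Rab7 at the retromer, Tbc1d14, a regulator of autophagosome formation, Tbc1d25, which acts on Rab33b, and Dennd3, an exchange factor for Rab12, were not called with TMM, at log2 fold changes between -0.63 and 0.39. With library totals, Tbc1d14 (-1.0) and Tbc1d25 (-1.07) were called lower in mature hepatocytes against hepatoblasts.

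The 7 members of the recycling endosome and Rab8 set had a median change in mature hepatocytes whose sign depended on the scaling. Tbc1d8b, Tbc1d16 and Tbc1d17 were called higher in mature hepatocytes against hepatoblasts, 3 of 7 where 20.1% of all tested genes were called higher. The median log2 fold change of the 7 was 0.77 with TMM (-0.15 over all tested genes) and -0.09 with library totals (-1.0 over all tested genes), under which none of the 3 passed. Tbc1d8b (chrX:139684996-139753405, plus strand), which acts on Rab11 and is tied to kidney podocyte disease, stood at 13.1, 14.8, 15.5 and 17.7 CPM in the hepatoblast libraries, 22.4, 21.3, 19.6 and 21 CPM in the Diff. libraries, and 45.2, 38.3, 43.95 and 47.7 CPM in the mature libraries. The groups did not overlap, with mature hepatocytes highest and hepatoblasts lowest. Tbc1d8b had a log2 fold change of 1.52 ± 0.10 (SE, adjusted p = 1.96e-08) in mature hepatocytes against hepatoblasts, -1.06 ± 0.10 (adjusted p = 1.05e-06) in Diff. against mature hepatocytes, and 0.46 (adjusted p = 0.00162) in Diff. hepatocytes against hepatoblasts.

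Tbc1d16 (chr11:119143045-119228499, minus strand), a GTPase-activating protein for Rab4, stood at 17.1, 22.8, 25.7 and 23.8 CPM in the hepatoblast libraries, 53.9, 64.7, 56.2 and 61.5 CPM in the Diff. libraries, and 36.5, 52.05, 33.03 and 82.1 CPM in the mature libraries. All Diff. and mature libraries lay above the hepatoblast libraries, and the mature libraries were spread widely. For Tbc1d16, the log2 fold change was 1.40 ± 0.24 (SE, adjusted p = 0.000202) in Diff. hepatocytes and 1.19 ± 0.24 (adjusted p = 0.000513) in mature hepatocytes, the latter 0.85 and no longer called without mature hepatocytes replicate 4. Tbc1d17, which acts on Rab8 and binds optineurin, averaged 22.7 ± 1.28, 33.3 ± 3.73 and 48.3 ± 2.58 CPM in hepatoblasts, Diff. and mature hepatocytes, and its log2 fold change in mature hepatocytes was 1.09 (adjusted p = 1.39e-07). Of its exon length, 35.2% overlaps Il4i1 on the other strand. The libraries are described as strand-specific, and the strand setting of the counting is not given in the sources used here.

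Tbc1d9b (chr11:50131396-50172785, plus strand), which acts on Rab11a, stood at 54.5, 58.1, 59.8 and 62.01 CPM in the hepatoblast libraries, 50.1, 49.1, 54.4 and 54.1 CPM in the Diff. libraries, and 102, 84.5, 89.7 and 122 CPM in the mature libraries. The mature libraries were highest and the Diff. libraries lowest, with no overlap. Its log2 fold change was 0.77 (adjusted p = 2.18e-05) in mature hepatocytes against hepatoblasts, which turned to -0.09 with library totals, and -0.94 (adjusted p = 4.7e-06) in Diff. against mature hepatocytes, which was -1.02 and called without mature hepatocytes replicate 2. Tbc1d12 and the Rab14 exchange factors Dennd6a and Dennd6b were not called with TMM. With library totals, Dennd6b (-1.11) was called lower in Diff. hepatocytes against hepatoblasts.

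Of the 6 members of the ER and Golgi set, 0 were called by edgeR with TMM or by DESeq2 in either comparison against hepatoblasts, and 1 was lower in Diff. than in mature hepatocytes. At an unadjusted p below 0.05, edgeR had 1 higher and 3 lower in Diff. hepatocytes and 3 higher and 3 lower in mature hepatocytes, both against hepatoblasts. Of all tested genes, 31.4% were higher and 32.5% lower at this p in Diff. hepatocytes, and 34.2% and 40.1% in mature hepatocytes. At an adjusted p below 0.01 without the fold threshold, these were 0 and 2 in Diff. hepatocytes (23.2% and 23.7% of all tested genes) and 1 and 2 in mature hepatocytes (29.4% and 33.2%). The 1 called was Dennd5b (chr6:148988071-149101680, minus strand), at 73.04, 125, 115 and 123 CPM in the hepatoblast libraries, 54.04, 73.2, 66.7 and 70.2 CPM in the Diff. libraries, and 135, 125, 135 and 172 CPM in the mature libraries. The Diff. libraries lay below the mature libraries, and the lowest hepatoblast library overlapped the Diff. libraries. Dennd5b had a log2 fold change of -1.10 ± 0.17 (SE, adjusted p = 5.98e-05), and -0.57 and not called with library totals. Its paralog Dennd5a, an exchange factor for Rab39 that also binds Rab6, averaged 61.5 ± 5.29, 46.3 ± 1.34 and 47.7 ± 3.14 CPM in hepatoblasts, Diff. and mature hepatocytes. Tbc1d20 (chr2:152293828-152313996, plus strand), a GTPase-activating protein for Rab1, which moves cargo from the ER to the Golgi, stood at 31.2, 32.6, 34.03 and 35 CPM in the hepatoblast libraries, 45.1, 36.8, 40.3 and 40.8 CPM in the Diff. libraries, and 61.6, 54.04, 50.8 and 75.5 CPM in the mature libraries. The hepatoblast libraries were lowest, the Diff. libraries next and the mature libraries highest, without overlap. The log2 fold change was 0.86 (adjusted p = 1.47e-05) in mature hepatocytes against hepatoblasts, which was 0.00 with library totals. Tbc1d22a, Tbc1d22b and Tbc1d23, which links vesicles to Golgi golgins, were not called with TMM. With library totals, Dennd5a (-1.22), Tbc1d22b (-1.68) and Tbc1d23 (-1.15) were called lower in mature hepatocytes against hepatoblasts. Dennd5b (-1.04) was called lower in Diff. hepatocytes against hepatoblasts under that scaling.

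The largest change of all members belonged to Tbc1d30, in the set of the cilium, the centrosome and the TSC complex. Tbc1d30 (chr10:121263820-121351278, minus strand) acts on Rab8 and regulates cilia. It stood at 1.16, 0.567, 1.33 and 1.82 CPM in the hepatoblast libraries, 20.3, 24.4, 22.1 and 23.5 CPM in the Diff. libraries, and 13.2, 28.6, 14.4 and 14.8 CPM in the mature libraries. All hepatoblast libraries lay at or under 1.82 CPM and all others at or above 13.2 CPM, and Diff. and mature libraries overlapped. For Tbc1d30, the log2 fold change was 4.21 ± 0.32 (SE, adjusted p = 1.47e-07) in Diff. hepatocytes and 3.86 ± 0.32 (adjusted p = 1.28e-07) in mature hepatocytes, and 0.35 (adjusted p = 0.27) in Diff. against mature hepatocytes. Mature hepatocytes replicate 2 lay above the other mature libraries, and without it the change against hepatoblasts was 3.53. Tbc1d30 was the 1 member called higher in mature hepatocytes under library totals too (3.04). The hepatoblast values rest on 19 to 55 counts per library.

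Tbc1d32, which acts in Hedgehog signalling at the cilium, averaged 3.80 ± 0.809, 5.41 ± 0.55 and 9.71 ± 0.789 CPM in hepatoblasts, Diff. and mature hepatocytes, and rose in mature hepatocytes at a log2 fold change of 1.35 (adjusted p = 7.09e-06) (0.51 and not called with library totals). Tbc1d31, a protein of the centriolar satellites, averaged 17.8 ± 1.47, 11.4 ± 0.839 and 10.4 ± 0.669 CPM and was not called with TMM, at -0.64 (adjusted p = 0.000106) in Diff. and -0.77 (adjusted p = 1.23e-05) in mature hepatocytes. With library totals the latter was -1.63 and called. The summed cell cycle genes had the same order of groups, as given above, and their part in the level of Tbc1d31 was not tested. Tbc1d7, a subunit of the TSC complex that restrains mTORC1, was not called.

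Tbc1d8, Tbc1d9, Tbc1d19 and Tbc1d21 were put in no set, since their Rab is less well established. The 3 of them that were tested were each called in mature hepatocytes against hepatoblasts, and each was higher in Diff. than in mature hepatocytes. Of all tested genes, 44.8% were called in the former comparison, and 20.2% were called higher in the latter. Tbc1d8 (chr1:39371492-39478755, minus strand) stood at 8.87, 6.63, 6.12 and 7.26 CPM in the hepatoblast libraries, 52.7, 64.8, 63.4 and 67.4 CPM in the Diff. libraries, and 25.6, 32.02, 18.1 and 20.7 CPM in the mature libraries. The groups did not overlap, with the Diff. libraries highest and the hepatoblast libraries lowest. Tbc1d8 had a log2 fold change of 3.10 ± 0.18 (SE, adjusted p = 1.22e-08) in Diff. hepatocytes, 1.74 ± 0.17 (adjusted p = 8.41e-07) in mature hepatocytes, and 1.37 ± 0.17 (adjusted p = 8.85e-06) in Diff. against mature hepatocytes. With library totals the value in mature hepatocytes against hepatoblasts was 0.88 and not called. The bile duct markers shared this order of groups with Tbc1d8 and Tbc1d2, and their part was not tested. Of the exon length of Tbc1d8, 8.02% overlaps the ribosomal protein gene Rpl31 on the other strand.

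Tbc1d9 (chr8:83165352-83272934, plus strand), a calcium-binding TBC protein by its EF-hand, stood at 7.90, 12.5, 10.04 and 9.01 CPM in the hepatoblast libraries, 13.6, 14.1, 9.77 and 12.97 CPM in the Diff. libraries, and 1.51, 0.834, 1.05 and 1.05 CPM in the mature libraries. Hepatoblast and Diff. libraries overlapped, and all mature libraries lay far below them, at 13 to 22 counts each. For Tbc1d9, the log2 fold change was -3.15 ± 0.22 (SE, adjusted p = 2.04e-08) in mature hepatocytes against hepatoblasts and 3.50 ± 0.22 (adjusted p = 1.52e-08) in Diff. against mature hepatocytes. In Diff. hepatocytes against hepatoblasts it was 0.35 (adjusted p = 0.103). Of its exon length, 13.9% overlaps Gm10645 on the other strand. Its paralog Tbc1d9b, given above, had its highest level in the mature libraries, where Tbc1d9 had its lowest. The mesenchymal markers were lowest in mature hepatocytes as well, and their part in the level of Tbc1d9 was not tested.

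Tbc1d19 (chr5:53809606-53903965, plus strand) stood at 5.38, 6.33, 4.86 and 4.57 CPM in the hepatoblast libraries, 3.98, 5.08, 4.00 and 4.98 CPM in the Diff. libraries, and 1.71, 2.38, 2.33 and 1.43 CPM in the mature libraries. The mature libraries were lowest, and hepatoblast and Diff. libraries overlapped. Tbc1d19 had a log2 fold change of -1.43 ± 0.20 (SE, adjusted p = 2.57e-05) in mature hepatocytes against hepatoblasts and 1.20 ± 0.20 (adjusted p = 0.000169) in Diff. against mature hepatocytes. Tbc1d21, known from the testis, had 0 counts in the hepatoblast libraries and 1 count in each of 3 other libraries. A library at 0 allows up to 3 counts at this depth.

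The promoters of Tbc1d8 and Tbc1d9 are shown as those of members that were called in opposite directions in mature hepatocytes against hepatoblasts. They cover the 250 bases before the gene start in RefSeq (GRCm38.p6), at chr1:39478756-39479005 on the minus strand for Tbc1d8 and at chr8:83165102-83165351 on the plus strand for Tbc1d9. Each runs 5′ to 3′ along the gene, and capitals mark the GC box (GGGCGG) in Tbc1d8 and the CCAAT box in Tbc1d9.
Tbc1d8: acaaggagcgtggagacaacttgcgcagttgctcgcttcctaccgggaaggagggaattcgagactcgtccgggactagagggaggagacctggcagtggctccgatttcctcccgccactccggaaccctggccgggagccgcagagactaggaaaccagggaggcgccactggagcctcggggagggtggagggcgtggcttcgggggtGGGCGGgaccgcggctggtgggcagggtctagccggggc
Tbc1d9: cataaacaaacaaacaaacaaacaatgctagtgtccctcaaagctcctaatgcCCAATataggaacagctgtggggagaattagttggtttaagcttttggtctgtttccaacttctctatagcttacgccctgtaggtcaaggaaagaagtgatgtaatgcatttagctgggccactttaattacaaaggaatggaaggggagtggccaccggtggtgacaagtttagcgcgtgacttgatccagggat

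In these sequences, the ratio of CpG found to CpG expected from the base content was 0.728 for Tbc1d8, 0.336 for Tbc1d9 and 0.758 for Tbc1d13. RefSeq gave 50 promoters for 36 of the 44 members and for 8 none, among them Tbc1d30, Tbc1d16, Tbc1d17, Tbc1d19 and Tbc1d10c. The median ratio was 0.708 over the 50 promoters and 0.374 over all 32841 promoters, and 60% of member promoters against 34% of all were at or above 0.6. All promoters here were taken without selection by gene type or level. The members are protein-coding, and all but Tbc1d21 passed the count filter, so the sets are not alike in this. The GC box GGGCGG was in 58% of member promoters and 32.7% of all, the CCAAT box CCAAT in 22% and 33.9%, and the E-box CACGTG in 12% and 6.02%. For TATAAA the shares were 8% and 12.4%, for the AP-1 site TGANTCA 2% and 6.75%, and for the C/EBP site TTGCNNAA 4% and 9.57%. The HNF4 site CAAAGTCCA and an HNF1 site were in 0 of the 50, and in 0.384% and 0.371% of all. Both strands were searched, a base may lie in more than 1 motif, and some members have more than 1 promoter. A match is a stretch of letters and no measured site.

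The scaling mattered for the comparison with mature hepatocytes. In these libraries, TMM sets the bulk of the genes level, while library totals count each gene as a share of all reads. The median log2 fold change of all tested genes in mature hepatocytes against hepatoblasts was -0.15 with TMM and -1.0 with library totals, and every member moved down by about this shift. Of the 10 members called higher with TMM, all kept a positive log2 fold change under library totals, from 0.24 to 3.04, but 9 were no longer called. All 5 called lower with TMM were also called with totals, at -4.0 for Tbc1d9, -3.45 for Tbc1d1, -3.26 for Dennd2c, -2.88 for Dennd2a and -2.27 for Tbc1d19. Dennd5a (-1.22), Tbc1d10b (-1.48), Tbc1d10c (-2.01), Tbc1d14 (-1.0) and Tbc1d22b (-1.68) were called lower with totals only. So were Tbc1d23 (-1.15), Tbc1d25 (-1.07), Tbc1d2b (-1.68) and Tbc1d31 (-1.63). In Diff. hepatocytes against hepatoblasts the median moved from -0.01 to -0.34, and the calls from 5 higher and 3 lower to 4 higher and 6 lower (11.2% and 20.4% of all tested genes). There Dennd1c lost its call, and Dennd5b (-1.04), Dennd6b (-1.11) and Tbc1d4 (-1.56) gained one. In Diff. against mature hepatocytes the median moved from 0.09 to 0.62. Dennd4b (-0.56), Dennd5b (-0.57), Tbc1d10a (-0.85), Tbc1d13 (-0.58) and Tbc1d8b (-0.52) lost their calls there, and Dennd4a (1.02) and Tbc1d2 (1.84) gained one.

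**Figure D4:**
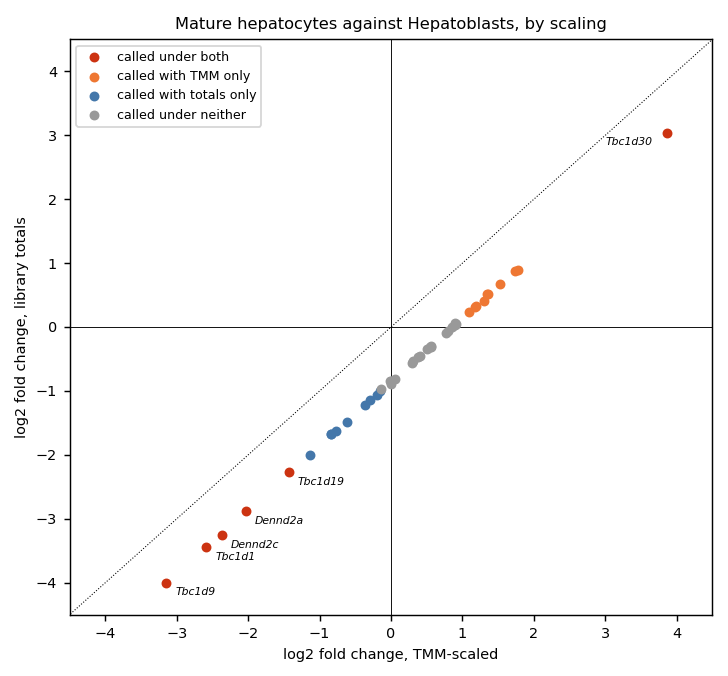
Log2 fold change of the 43 tested members in mature hepatocytes against hepatoblasts with TMM (horizontal axis) and with library totals (vertical axis), with the dotted line marking equal values and colours marking under which scaling a member was called. All points lie below the line, Tbc1d30 is called higher under both, and Tbc1d9, Tbc1d1, Dennd2c, Dennd2a and Tbc1d19 are called lower under both.

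Other genes of the Rab cycle were read from the same fit with TMM, and library totals were not examined for them. Of all tested genes, 28.9% were called in Diff. and 44.8% in mature hepatocytes, both against hepatoblasts. Among 10 TBC genes with another symbol, 0 were called by edgeR or DESeq2 in Diff. hepatocytes against hepatoblasts (3 higher and 3 lower at an unadjusted p below 0.05 in edgeR), while in mature hepatocytes Grtp1 rose (log2 fold change 1.45, adjusted p = 1.14e-07) and Sgsm1 fell (-1.98, adjusted p = 7.29e-07). Among 10 DENN genes with another symbol, again 0 were called in Diff. hepatocytes by either tool (3 higher and 1 lower at an unadjusted p below 0.05 in edgeR). In mature hepatocytes 3 rose, Madd, an exchange factor for Rab3 (1.74), and Fnip2 (1.71) and Flcn (1.03), which act together in nutrient sensing at the lysosome. Of 18 other Rab exchange factors and GTPase-activating proteins, 3 rose and 1 fell (22.2% of the 18) in each comparison with hepatoblasts. In both, Rin2, an exchange factor for Rab5, and Mon1a, which with Ccz1 activates Rab7, rose and Rab3il1 fell. Rab3il1 averaged 13.3 ± 11.7 CPM in hepatoblasts, 2.23 ± 1.22 in Diff. and 2.84 ± 0.236 in mature hepatocytes (SD, n = 4). Also higher were Rin1 in Diff. hepatocytes (3.84, adjusted p = 4.68e-06) and Mon1b in mature hepatocytes (1.14, adjusted p = 3.51e-05). Fits without hepatoblasts replicate 1 were not examined for the genes of this paragraph. Of 11 tested Rabs that are substrates of the members, 0 were called in any of the 3 comparisons by edgeR with TMM or by DESeq2. At an unadjusted p below 0.05, edgeR had 6 higher and 3 lower in Diff. hepatocytes, 8 and 1 in mature hepatocytes, and 3 and 4 in Diff. against mature hepatocytes. Of all tested genes, 36.1% were higher and 32.0% lower at this p in the last of these, and the shares of the other comparisons are those given with the ER and Golgi set. At an adjusted p below 0.01 alone, the counts were 5 and 1 in each comparison against hepatoblasts, and 3 and 3 in Diff. against mature hepatocytes, where 27.6% of all tested genes were higher and 26.2% lower.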

How the data were processed

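RNA was analysed in 12 libraries. Per the submitters' processing notes and the paper's methods, reads were checked with FastQC 0.11.2, and STAR 2.5.2b mapped them to GRCm38 and counted them with the Ensembl release 92 annotation. The values the authors deposited are these raw counts, without normalization. The 17779 genes that exceeded 10 counts in at least 1 library were kept, and edgeR 4.0.16 in R 4.3.3 was fitted to all 12 libraries with TMM factors and the group as its only term. Calls needed a Benjamini-Hochberg adjusted p under 0.01 over all tested genes and an absolute log2 fold change over 1. Log2 CPM for the two-sided exact permutation test used a prior count of 2. Positions and exon lengths came from GENCODE M21 and promoters from RefSeq.

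The members and lists were chosen with earlier results of these data known. Values of every library were given for the members directed at Rab35, for the 5 called members with the largest fold change per direction and comparison with at least 1 CPM in a group, and for the 3 highest members per kilobase in each group. The test was checked on simulated data. Alternatives included DESeq2 1.42.0, other scalings and filters, the replicate number as a block, and fits without each library. No pair of libraries of a group agreed within sampling noise, with a chi-square per gene of at least 5.97.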

Additional observations from a re-analysis of the deposited data

Results flagged for a closer look

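In each group of 4 libraries, the gap of the highest or lowest library to its neighbour was compared with the range of the group. Of 129 such groups, 10 had a library set apart by more than Dixon's 95% limit of 0.829, and chance sets apart about 1 in 20 groups (6.4 here). Hepatoblasts replicate 1 accounted for 5 of the 10 and mature hepatocytes for 4. Hepatoblasts replicate 1 was also the highest hepatoblast library for 18 of the 43 members (41.9%, and 34% of all tested genes). It was above the other hepatoblast libraries at 7.22 CPM for Dennd2c (others 1.49 to 2.33), 1.19 CPM for Tbc1d2 (0.194 to 0.299), 3.77 CPM for Tbc1d4 (1.37 to 1.62), 35.3 CPM for Tbc1d10b (24 to 25.1) and 32.4 CPM for Tbc1d24 (21.8 to 23.1). Among hepatoblasts, the erythroid, macrophage and leukocyte markers were highest in the same library, and their part was not tested. Hepatoblasts replicate 2 was lower for Dennd4c, at 29.1 CPM against 30.3 to 30.5 CPM.

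Among mature hepatocytes, replicate 2 was higher for Tbc1d30, at 28.6 CPM against 13.2 to 14.8 CPM, and lower for Tbc1d1, at 4.11 CPM against 6.70 to 7.24 CPM. Replicate 3 was higher for Tbc1d10b, at 20.02 CPM against 16.8 to 17.1 CPM. Replicate 4 was lower for Tbc1d22b, at 4.97 CPM against 7.41 to 7.70 CPM.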

How the results depend on the processing

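The counts of called members stayed within 1.5 times of the main count with DESeq2's Wald test, DESeq2's size factors, both other filters and fits of 8 libraries. An adjusted p under 0.05 without a fold threshold gave 16 higher and 15 lower in Diff. hepatocytes against hepatoblasts, 23 and 11 in mature hepatocytes against hepatoblasts, and 9 and 16 in Diff. against mature hepatocytes. With the fold threshold inside the test (glmTreat), 3 and 0, 3 and 4, and 1 and 1 remained past it. Library totals gave 4 and 6, 1 and 14, and 7 and 1. Fits without 1 library gave 5 to 6 higher and 1 to 4 lower, 8 to 10 and 5 to 6, and 5 and 5 to 6. The count of 1 lower in Diff. hepatocytes arose without hepatoblasts replicate 1 or Diff. hepatocytes replicate 3 or 4. The members at the smallest permutation p numbered 30, 32 and 24, and 29, 28 and 27 with library totals.

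No source says that equal replicate numbers share a batch. The correlations of deviations of the 12 same-numbered pairs ran from -0.081 to 0.324. The 3 over 0.1 were pairs of hepatoblasts and Diff. hepatocytes (replicates 1, 3 and 4), whose replicate 2 gave -0.059, and in 10 of 24 checks a library's best match had its own number. With the replicate number as a block, the counts were 5 and 2, 10 and 6, and 5 and 6. Dennd4b was no longer called lower in Diff. hepatocytes against hepatoblasts (-0.97), and Tbc1d10c was called lower in mature hepatocytes against hepatoblasts (-1.12).

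Signs that turned belonged to members not called in that comparison. With library totals they were -0.05 for Tbc1d12 and -0.02 for Tbc1d20 in Diff. hepatocytes against hepatoblasts. In mature hepatocytes against hepatoblasts they were -0.30 for Dennd1a, -0.81 for Dennd4b, -0.31 for Dennd4c, -0.47 for Dennd5b, -0.57 for Dennd6a, -0.32 for Tbc1d12, -0.35 for Tbc1d15, -0.46 for Tbc1d22a, -0.06 for Tbc1d24, -0.54 for Tbc1d5 and -0.09 for Tbc1d9b. In Diff. against mature hepatocytes they were 0.40 for Dennd1b, 0.47 for Dennd2d, 0.03 for Dennd3, 0.34 for Dennd4c, 0.49 for Dennd5a, 0.05 for Dennd6a, 0.03 for Tbc1d10c, 0.27 for Tbc1d12 and 0.39 for Tbc1d14. The replicate block gave 0.02 for Dennd4a in mature hepatocytes against hepatoblasts. Without 1 library, Tbc1d10a ran from -0.12 to 0.04 in Diff. hepatocytes against hepatoblasts. Dennd4a ran from -0.11 to 0.23, Dennd4b from -0.09 to 0.38, Dennd6b from -0.24 to 0.13 and Tbc1d7 from -0.06 to 0.04 in mature hepatocytes against hepatoblasts. In Diff. against mature hepatocytes, Dennd2d ran from -0.11 to 0.00, Tbc1d10b from -0.03 to 0.14, Tbc1d23 from -0.02 to 0.16, Tbc1d24 from -0.07 to 0.17 and Tbc1d25 from -0.06 to 0.28. Apart from the scaling, the cause was not tested. Tbc1d10c, Dennd2c, Tbc1d2, Tbc1d4, Dennd2a, Tbc1d19, Tbc1d9 and Tbc1d30 had fewer than 50 counts in several libraries, which limits their precision. In the mature libraries, Dennd2a had 11 to 37 counts and Tbc1d19 had 23 to 40.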
